A study of Mus musculus with 16 samples.

Results

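Purine receptors and the ectonucleotidases that process their ligands were followed in mouse dendritic cells given Lactobacillus acidophilus NCFM, a probiotic gut bacterium. The 10 listed genes were the nucleotide receptors P2ry6, P2ry12, P2ry13, P2ry14, P2rx4 and P2rx7, the adenosine receptors Adora2a and Adora2b, and the ectoenzymes Entpd1 and Nt5e. Members were the probe sets whose gene symbol in the array's annotation was 1 of these names, and 8 of the 10 genes had at least 1 such probe set, 17 probe sets in all. Adora2a and Adora2b were named by no probe set of that table and were not analysed here. The 8 measured genes stood among 18193 genes tested, and they were selected on earlier results of these arrays, the log2 changes of NCFM against control. Each difference between NCFM and control below therefore describes these arrays and is given without a p-value as evidence.

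The cells were bone marrow cells of wild type C57BL/6 mice grown for 8 days with GM-CSF, from which the non-adherent cells were taken as immature dendritic cells. All groups were then kept in fresh medium with GM-CSF. NCFM was present at 10 µg/ml for 4, 10 or 18 h in 3 groups of 3 arrays, and cells labelled control were taken after 4 h (3 arrays), 10 h (2 arrays) and 18 h (2 arrays). Total RNA was hybridised to single-channel arrays, and the deposited values are linear intensities with array medians between 162 and 167. The labels number the arrays 1 to 3 within a group but do not say whether these are separate animals or cultures, so every error below measures the spread between arrays, which may be technical.

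Cells release ATP and other nucleotides when they are stressed, damaged or activated, and nearby cells sense them through purinergic receptors. P2X receptors are ion channels opened by ATP, while P2Y receptors couple to G proteins and recognise ATP, ADP, UTP, UDP or UDP-sugars. Entpd1 (CD39) removes phosphates from ATP and ADP to give AMP, Nt5e (CD73) converts AMP to adenosine, and adenosine acts on its own receptors, of which Adora2a and Adora2b raise cAMP. In dendritic cells this system is known for its part in migration, inflammasome activation and the control of T cell responses.

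P2ry14, P2ry13 and P2ry12 are neighbours on mouse chromosome 3, all on the minus strand and all inside the span of Med12l. In the RefSeq annotation of GRCm38.p6, P2ry14 spans chr3:59114623-59153492, P2ry13 spans chr3:59207892-59210882 and P2ry12 spans chr3:59216271-59262985. The change with NCFM stayed positive for P2ry14. For P2ry13 and P2ry12 it was positive at 4 h and negative at 18 h, although no P2ry12 change passed the threshold used below. The 250 bases upstream of a start site of each are shown because the 3 genes lie close together but P2ry14 differed in its course. They are chr3:59153493-59153742 for P2ry14 (the outermost of its 4 listed start sites), chr3:59210883-59211132 for P2ry13 and chr3:59262986-59263235 for P2ry12, each 5′ to 3′ on the minus strand, with capitals marking a match to the AP-1 motif TGANTCA.
P2ry14: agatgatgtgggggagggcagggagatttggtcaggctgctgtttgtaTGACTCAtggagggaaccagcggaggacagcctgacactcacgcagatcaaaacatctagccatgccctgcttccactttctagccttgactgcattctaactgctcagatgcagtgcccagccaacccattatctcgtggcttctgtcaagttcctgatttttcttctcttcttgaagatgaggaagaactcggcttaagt
P2ry13: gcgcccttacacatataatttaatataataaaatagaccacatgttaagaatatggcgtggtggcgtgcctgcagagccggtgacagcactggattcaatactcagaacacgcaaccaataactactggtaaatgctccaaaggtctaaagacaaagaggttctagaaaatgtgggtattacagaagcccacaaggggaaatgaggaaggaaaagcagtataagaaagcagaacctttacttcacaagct
P2ry12: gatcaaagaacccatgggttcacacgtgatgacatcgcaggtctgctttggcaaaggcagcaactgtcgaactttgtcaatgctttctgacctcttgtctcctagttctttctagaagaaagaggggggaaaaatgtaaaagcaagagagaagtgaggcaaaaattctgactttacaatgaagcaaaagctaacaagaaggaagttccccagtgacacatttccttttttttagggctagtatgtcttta

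The AP-1 motif in the P2ry14 sequence starts 202 bases before the start site and, being symmetric apart from its middle base, matches on both strands. A second P2ry14 window, chr3:59131279-59131578, holds the same motif 144 bases before its start site, and the other 2 P2ry14 windows hold none. In the RefSeq windows of 300 bases (250 before to 50 after a start) this motif was found in 7.81% of 32851 windows of all genes. The P2ry13 and P2ry12 windows held neither this motif nor any of the other 3 searched on both strands, which were the NF-kB consensus (4.51% of all windows), the interferon-response core GAAANNGAA (8.56%) and the cAMP-response core TGACG (20.8%). Windows were given for 8 of the 10 listed genes, 13 in all, and none held the NF-kB consensus or GAAANNGAA. The AP-1 motif was not particular to P2ry14, since a P2rx7 window, chr5:122643677-122643976, held it too. TGACG matched in windows of P2rx4 and Entpd1. A match describes the letters of the window and does not show binding.

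P2ry14, the receptor for UDP-glucose and related UDP-sugars, was higher with NCFM at every time. Control arrays read 1789, 1513 and 1350 at 4 h, 1841 and 1832 at 10 h, and 2013 and 1812 at 18 h. NCFM arrays read 4002, 4789 and 4994 at 4 h, 3968, 5288 and 5796 at 10 h, and 3642, 4132 and 4076 at 18 h. The lowest of the 9 NCFM arrays lay above the highest of the 7 control arrays, so the groups did not overlap at any time. The log2 change was 1.57 ± 0.14 (SE) at 4 h, 1.43 ± 0.16 at 10 h and 1.05 ± 0.16 at 18 h, or 2.97-fold, 2.70-fold and 2.07-fold. P2ry14 was called at each of the 3 times, where called means an adjusted p under 0.05 in limma over all genes. The difference between its changes at 18 h and 4 h was -0.52 ± 0.21 and was not called. In this bulk RNA, a change in the number of cells that carry a transcript and a change in transcript per cell cannot be told apart.

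P2ry13, a receptor for ADP that couples to inhibitory G proteins, rose early and then lay below control. Control arrays stayed within 515 to 626 at all 3 times. NCFM arrays read 992, 1011 and 1413 at 4 h, 640, 638 and 850 at 10 h, and 367, 364 and 429 at 18 h. All NCFM arrays thus lay above the same-time controls at 4 and 10 h and below them at 18 h. The log2 change was 0.93 ± 0.14 at 4 h (1.91-fold, called), 0.28 ± 0.16 at 10 h (not called) and -0.48 ± 0.16 at 18 h (1.40-fold lower, called). From 4 to 18 h the effect moved by -1.41 ± 0.21 on the log2 scale, which was called. The call at 18 h was close to the threshold, and it was lost under quantile normalization (-0.30), with an intensity trend and robust variance, without the arrays numbered 1 (-0.38), and when any of 4 of the 5 arrays of that time was left out, namely either control array or NCFM array 1 or 2.

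P2ry12, a further ADP receptor, best known on platelets and microglia, was dim, with 149 to 299 on the 16 arrays. NCFM arrays read 250, 214 and 299 at 4 h against controls of 194, 209 and 241, and 193, 201 and 219 at 10 h against 218 and 229. At 18 h they read 169, 149 and 189 against 255 and 202. The groups overlapped at 4 and 10 h and were apart at 18 h, with NCFM lower. The log2 change was 0.24 ± 0.13, -0.13 ± 0.15 and -0.43 ± 0.15 in time order, and none was called. With the array number as a block, a fit that compares arrays of the same number, the 18 h change was -0.52 and was called, as was the 18 h minus 4 h difference of -0.76. Over the 16 arrays the log2 intensities of P2ry12 and P2ry13 had a Pearson correlation of 0.78, a description of arrays that share groups and times. Of 5 platelet markers 5 lay above the array median on every array, but they differed in brightness. Pf4 read 2253 to 10150 and Ppbp 574 to 3266, while Itga2b read 410 to 553. Gp9 (240 to 278) and Gp1bb (221 to 261) were dim, in the range of P2ry12 itself. The summed intensity of the 5, 5228 to 11384 in NCFM arrays, overlapped the 6263 to 14332 of controls. The part of platelet RNA in the P2ry12 values was not tested.

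P2ry6, the receptor for UDP, showed the largest fall among the measured members. Control arrays read 2464, 3214 and 3027 at 4 h, 2651 and 3073 at 10 h, and 2937 and 3822 at 18 h. NCFM arrays read 769, 566 and 666 at 4 h, 917, 1953 and 2314 at 10 h, and 1168, 1796 and 2337 at 18 h. Every NCFM array lay below every control array, and the 4 h arrays were the lowest of all. The log2 change was -2.12 ± 0.32 at 4 h, a 4.36-fold fall that was called. It was -0.83 ± 0.35 at 10 h and -0.98 ± 0.35 at 18 h, neither of them called. The differences from the 4 h change, 1.29 ± 0.48 at 10 h and 1.14 ± 0.48 at 18 h, were not called either. With the array number as a block the 10 h change of -0.96 and the 18 h change of -1.11 were called. With only arrays 2 and 3 both differences from 4 h, 1.81 and 1.45, were called as well.

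**Figure D1:**
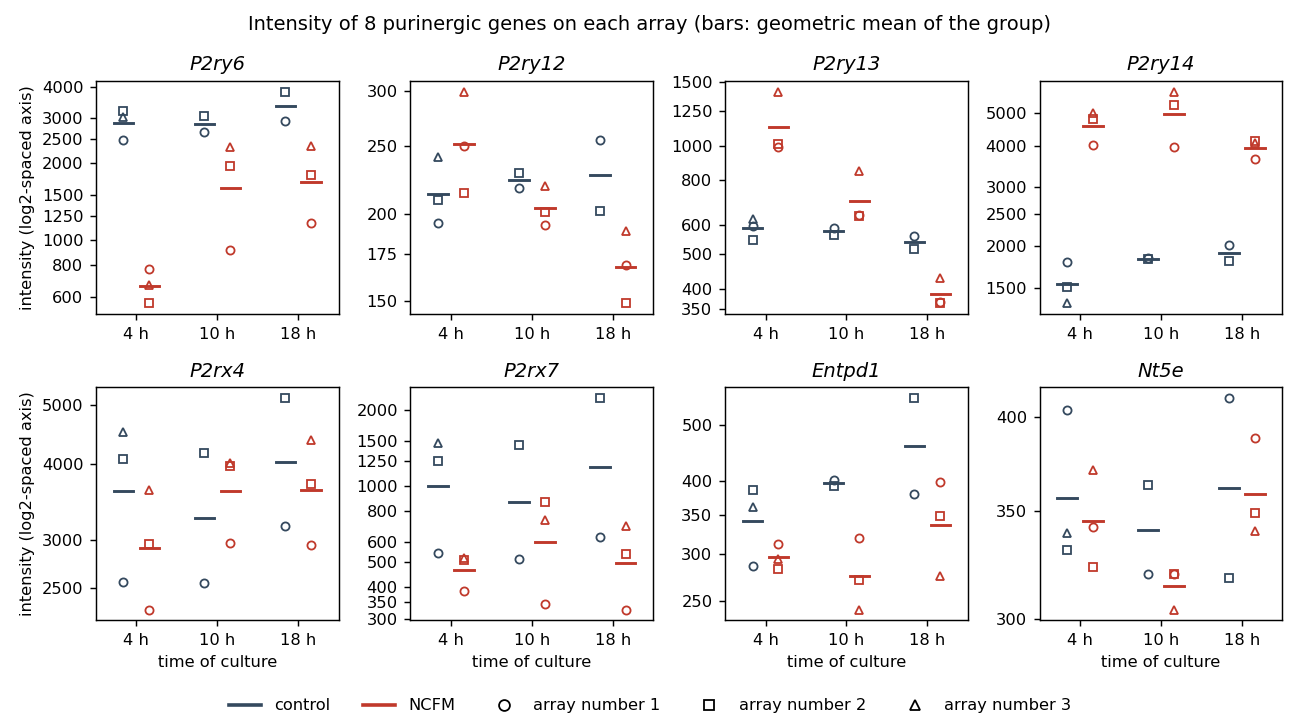
Intensity (log2-spaced axis, own scale in each panel) of the brightest probe set of each of 8 genes against time of culture, 1 point per array, with control arrays in dark blue, NCFM arrays in red, the marker shape giving the array number and bars the geometric mean of each group. P2ry14 lies higher and P2ry6 lower on all NCFM arrays than on any control array, P2ry13 lies above control at 4 h and below it at 18 h, and the Nt5e values of both groups overlap or meet at every time.

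P2rx7, the ATP-gated channel that triggers inflammasome activation, had the largest standard errors of the 8 measured genes. Control arrays read 543, 1259 and 1472 at 4 h, 516 and 1453 at 10 h, and 631 and 2222 at 18 h. NCFM arrays read 386, 512 and 520 at 4 h, 343, 864 and 736 at 10 h, and 325, 541 and 698 at 18 h. The groups were apart at 4 h, with NCFM lower, and overlapped at 10 and 18 h, where the control array numbered 1 read low. The log2 change was -1.10 ± 0.56, -0.52 ± 0.63 and -1.25 ± 0.63 at 4, 10 and 18 h, and none was called.

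Between arrays of the same number, P2rx7 was lower with NCFM in 7 of 7 pairs, by -2.04 to -0.49 on the log2 scale. With the array number as a block the changes were -1.10 ± 0.23, -0.71 ± 0.26 and -1.44 ± 0.26, and those at 4 and 18 h were called. Without the arrays numbered 1 the changes were -1.40, -0.87 and -1.85, and all 3 were called. The unpaired values turned on single control arrays. Without control array 2 the 10 h change was 0.22 and the 18 h change -0.34, neither called, while without control array 1 they were -1.27 (not called) and -2.16 (called). A second P2rx7 probe set (1419853_a_at, 136 to 854) was likewise lower with NCFM in 7 of 7 pairs, by -1.64 to -0.52. The third (1422218_at) stayed within 210 to 268 on all arrays, so probe sets of this gene differed in what they recorded.

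P2rx4, a more widely expressed ATP-gated channel found largely on lysosomes, was bright in every group, with 2297 to 5143 on the 16 arrays. NCFM arrays read 2297, 2949 and 3627 at 4 h against controls of 2555, 4078 and 4524, and 2967, 3966 and 4012 at 10 h against 2542 and 4179. At 18 h they read 2936, 3702 and 4391 against 3160 and 5143. The groups overlapped at each time. The log2 change was -0.31 ± 0.28, 0.15 ± 0.31 and -0.15 ± 0.31, and no change was called. With the array number as a block the 4 h change of -0.31 ± 0.09 was called. Its other 3 probe sets had no called change at any of these times.

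P2rx7 and P2rx4 lie next to each other on chromosome 5, at chr5:122643927-122692336 and chr5:122707518-122729739 in GRCm38.p6, and both were lower on the array numbered 1 than on its partners in 6 of 6 groups. The mean gap was -1.20 on the log2 scale for P2rx7 (from -1.82 to -0.42) and -0.59 for P2rx4 (from -0.75 to -0.43). P2ry6 was lower on that array in 5 of 6 groups, with a mean gap of -0.44. P2ry13, P2ry14 and P2ry12 had mean gaps of -0.06, -0.08 and -0.01, and Entpd1 and Nt5e of -0.02 and 0.11, with the sign differing between groups. The summed intensity of 7 macrophage markers (Adgre1, Mertk, Fcgr1, Cd68, C1qa, Csf1r and Mrc1) was also lower on number 1 arrays in 6 of 6 groups, at 0.57 to 0.70 times that of their partners. That sum was 20153 to 40730 on NCFM arrays and 23605 to 44980 on control arrays. Platelet markers (0.45 to 0.84 times) and T cell markers (0.89 to 0.98 times) were lower on number 1 arrays in 6 of 6 groups as well. Endothelial markers (0.48 to 1.025 times, with Kdr the brightest) and B cell markers (0.92 to 1.024 times) were lower in 5 of 6. NK, mast, stromal and erythroid markers were lower in 2 to 4 of 6. Neutrophil markers were lower in 1 of 6, at 0.78 to 2.07 times their partners. Dendritic cell markers, a sum made up mostly of Cd74 and H2-Ab1, were lower in 0 of 6, at 1.018 to 1.075 times. The part of these cell types in the P2rx7, P2rx4 and P2ry6 values was not tested. These gaps do not depend on the choice of members by the NCFM contrast, since each compares arrays of 1 group.

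**Figure D2:**
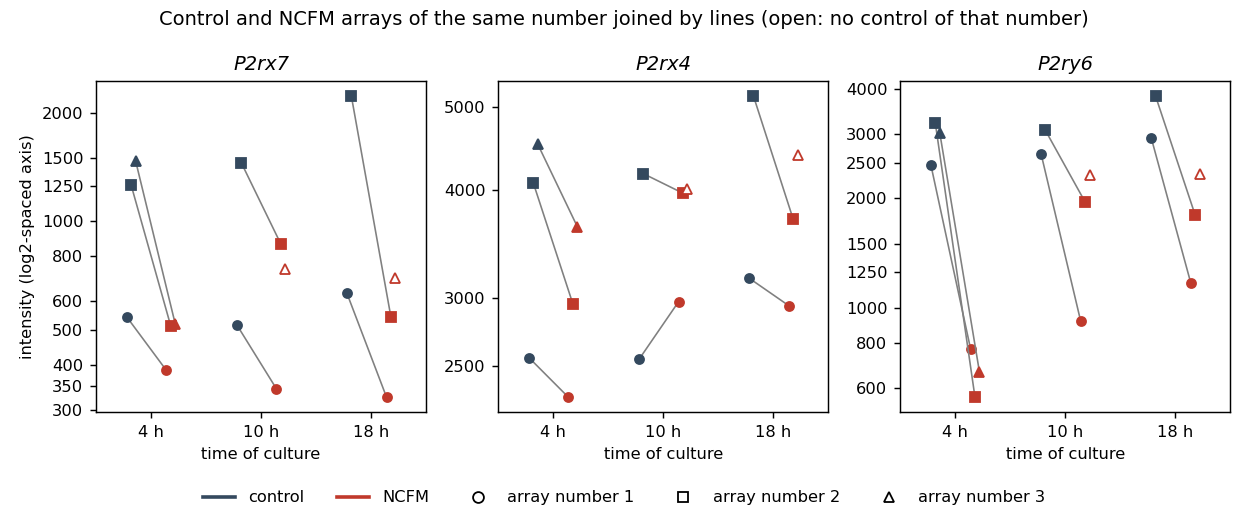
Intensity (log2-spaced axis, own scale in each panel) of P2rx7, P2rx4 and P2ry6 against time of culture, with grey lines joining the control (dark blue) and NCFM (red) array of the same number and open triangles for NCFM arrays that have no control of their number. All 7 lines fall for P2rx7 and for P2ry6, 6 of 7 fall for P2rx4, and the circles, which are arrays numbered 1, lie lowest in each group for P2rx7 and P2rx4.

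Entpd1, which removes phosphates from extracellular ATP and ADP, had 3 probe sets with negative mean changes at each time. The changes differed in size, and only those of the second probe set were called. On the brightest (1423326_at) control arrays read 286, 386 and 362 at 4 h, 402 and 393 at 10 h, and 381 and 556 at 18 h. NCFM arrays read 312, 283 and 295, then 320, 271 and 241, then 399, 349 and 275. The groups were apart at 10 h only, and the log2 changes of -0.21 ± 0.17, -0.53 ± 0.19 and -0.45 ± 0.19 were not called.

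The second Entpd1 probe set (1453586_at) read 230, 301 and 293 in control arrays at 4 h, 219 and 362 at 10 h, and 280 and 383 at 18 h. On NCFM arrays it read 173, 165 and 178, then 186, 172 and 168, then 160, 165 and 128. No NCFM array reached the lowest same-time control array. Its log2 changes of -0.67 ± 0.18, -0.68 ± 0.20 and -1.13 ± 0.20 were called in a fit over all 34945 probe sets that name 1 gene, in which 10.2%, 14% and 13.7% were called lower at 4, 10 and 18 h. The third (1450939_at, 112 to 274) changed by -0.28, -0.40 and -0.48, none of them called.

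Nt5e, which makes adenosine from AMP, also depended on the probe set. The brightest (1422974_at) read 404, 331 and 339 in controls at 4 h, 320 and 363 at 10 h, and 411 and 318 at 18 h. NCFM arrays read 342, 323 and 371, then 320, 320 and 304, then 388, 349 and 340. These overlapped at 4 and 18 h and met at 320 at 10 h, and the log2 changes of -0.05 ± 0.10, -0.12 ± 0.12 and -0.01 ± 0.12 were not called. The second (1428547_at) read 284, 261 and 245 in controls at 4 h, 287 and 319 at 10 h, and 230 and 226 at 18 h. NCFM arrays of that probe set read 169, 191 and 199, then 128, 134 and 135, then 186, 135 and 133. It was lower on every NCFM array than on any control array, and in 7 of 7 same-number pairs, by -1.25 to -0.30. Its changes of -0.50 ± 0.11, -1.19 ± 0.13 and -0.61 ± 0.13 were called in the fit over all probe sets. The third (1459023_at) stayed within 163 to 188. Both called probe sets of these 2 enzymes read close to the array medians of 162 to 167 on NCFM arrays.

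**Figure D3:**
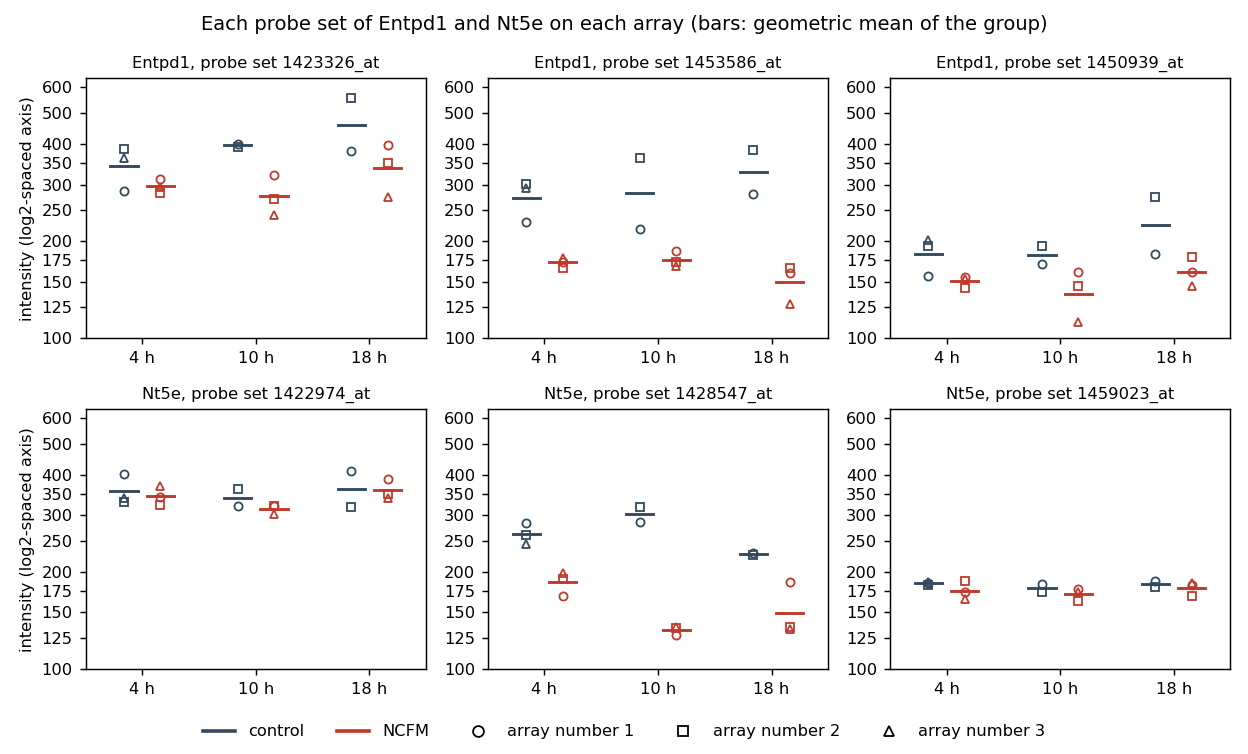
Intensity (log2-spaced axis, 1 scale for all panels) of the 3 probe sets of Entpd1 (top) and Nt5e (bottom) against time of culture, 1 point per array, with control in dark blue, NCFM in red, marker shapes for the array number and bars for the geometric mean of a group. Probe sets 1453586_at of Entpd1 and 1428547_at of Nt5e separate NCFM from control at each time, while the brightest Nt5e probe set and 1459023_at overlap.

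Over the brightest probe set of each of the 8 measured genes, 2 rose (P2ry13 and P2ry14) and 1 fell (P2ry6) at 4 h, when 5.27% of all genes were called higher and 13.1% lower. At 10 h 1 rose (P2ry14) and 0 fell, against 8.21% and 16.5% of all genes. At 18 h 1 rose (P2ry14) and 1 fell (P2ry13), against 7.4% and 16.3%. The median log2 change of the 8 genes was -0.13, -0.12 and -0.44, beside -0.01, 0.01 and 0.00 for all genes tested. For the change of the NCFM effect from 4 to 10 h 0 members were called (limma; 2 at an unadjusted p under 0.05), against 0.506% of all genes. From 4 to 18 h 1 was called, P2ry13, against 3.4% of all genes. The 3 comparisons of effects and times share control arrays.

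With the array number as a block, 5 members were called at 4 h, 2 at 10 h and 5 at 18 h, where 26.8%, 31.1% and 30.5% of all genes were called in either direction. Those were P2ry6, P2ry13, P2ry14, P2rx4 and P2rx7 at 4 h, P2ry6 and P2ry14 at 10 h, and P2ry6, P2ry12, P2ry13, P2ry14 and P2rx7 at 18 h. For the change of effect, 1 member was called from 4 to 10 h (P2ry13, -0.75) and 2 from 4 to 18 h (P2ry12 and P2ry13), against 2.51% and 9.15% of all genes. In that fit P2ry14 was the only member called higher at 10 and 18 h.

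**Figure D4:**
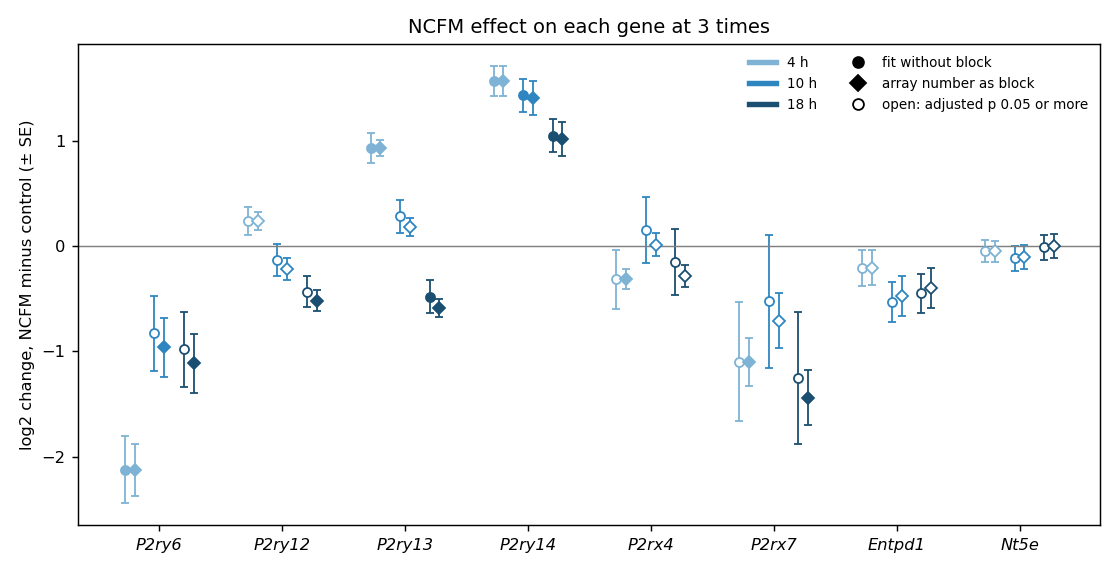
Log2 change of NCFM minus control (± SE from the limma fit over 16 arrays) for each of 8 genes at 4, 10 and 18 h (light to dark blue), as circles without and diamonds with the array number as a block, filled where the adjusted p was under 0.05. P2ry14 is the only gene with filled points above 0 at all 3 times, P2ry6 is lowest at 4 h (-2.12), P2ry13 crosses from 0.93 to -0.48, and the bars of P2rx7 and P2rx4 are shorter in the fit with the block.

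The changes over time in control cells were not among the contrasts used to choose members, but the same control arrays entered those contrasts. In limma 0 members were called between 4 and 10 h and 0 between 4 and 18 h, where the background was 0% of all genes. At an unadjusted p under 0.05 the members numbered 0 and 1, beside 553 and 559 of all genes. The 1 was Entpd1, whose control intensity was 0.43 ± 0.19 log2 units higher at 18 h than at 4 h. P2ry14 was 0.25 ± 0.16 and 0.31 ± 0.16 higher in controls at 10 and 18 h than at 4 h, neither of them called. P2ry6 (-0.01 ± 0.35 and 0.22 ± 0.35) and P2ry13 (-0.03 ± 0.16 and -0.13 ± 0.16) changed by less than their errors in control culture.

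The genes most like each of the 4 members with the largest changes were found by Pearson correlation of log2 intensity over the 16 arrays. For P2ry14 these were Fam241a (0.99), Marchf5 (0.99) and Stat2 (0.99), and Stat2, an interferon signalling factor, changed by 2.56, 2.08 and 1.92 at 4, 10 and 18 h. For P2ry6 they were Plekho1 (0.96), Dgkz (0.94) and Cep89 (0.94), and for P2ry13 Fmr1 (0.96), Ccnyl1 (0.94) and Vcl (0.94). Fmr1 also lay higher at 4 h (0.80) and lower at 18 h (-0.55) with NCFM. For P2rx7 they were Stab1 (0.95), Ceacam15 (0.94) and Cd300c2 (0.93). Stab1, a scavenger receptor of macrophages, changed by -0.71, -0.68 and -1.06. The arrays share groups and array numbers, so these values describe the arrays only.

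The rest of the purinergic pathway was read from 64 further genes in 7 groups, of which 56 were measured. At 4 h 4 of these rose and 5 fell, at 10 h 9 rose and 10 fell, and at 18 h 10 rose and 9 fell. Of all genes, 5.27% rose and 13.1% fell at 4 h, 8.21% and 16.5% at 10 h, and 7.4% and 16.3% at 18 h. These shares also stand beside the counts of each group below. With the array number as a block the 4 h counts were 5 and 10, where 26.8% of all genes were called in either direction. The median log2 change of the 56 genes was -0.01, -0.02 and -0.02, near 0 as for all genes.

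The 11 other nucleotide receptors measured were P2ry1, P2ry2, P2ry4, P2ry10, P2ry10b, Gpr17, P2rx1, P2rx2, P2rx3, P2rx5 and P2rx6. In limma 0 were called at 4 h and 0 at 10 h, with 2 at an unadjusted p under 0.05 each time. Of all genes, 5.27% rose and 13.1% fell at 4 h, and 8.21% and 16.5% at 10 h. At 18 h 2 rose by small amounts, where 7.4% of all genes rose and 16.3% fell. These were Gpr17 (0.18 ± 0.05, from 104.5 in control to 118.3 with NCFM) and P2rx6 (0.20 ± 0.06). In the fit with the array number as a block 1 rose at 4 h (P2ry2, 0.21), 1 fell at 10 h (P2rx5, -0.52), and 2 rose and 1 fell at 18 h (P2rx5, -0.51). P2ry10 had changes of -0.69 ± 0.45, -0.45 ± 0.50 and -0.84 ± 0.50 that were called in neither fit. These receptors were named after their values were seen. Adora3, the only adenosine receptor measured, was dim, with group geometric means of 184.9 to 201.8. It changed by 0.05 to 0.10 and was not called.

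Genes listed for adenosine uptake and conversion included both rises and falls. Of 13 measured, 2 rose and 0 fell at 4 h, 3 rose and 5 fell at 10 h, and 2 rose and 5 fell at 18 h. Nt5c3, a nucleotidase of the cytosol, rose by 3.29 ± 0.15, 2.95 ± 0.17 and 2.39 ± 0.17, from a control geometric mean of 454.5 to 4455 with NCFM at 4 h. Pnp, which splits inosine and guanosine, rose by 1.34 ± 0.17, 1.32 ± 0.19 and 0.93 ± 0.19. Adk, which phosphorylates adenosine to AMP, fell at 10 h (-1.71 ± 0.26) and 18 h (-2.13 ± 0.26), from 848.5 in control to 193.7 with NCFM at the latter time. Ahcy, which releases adenosine from S-adenosylhomocysteine, also fell at these times (-1.06 ± 0.30 and -1.48 ± 0.30).

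Surface and release genes moved in both directions. Enpp4, a membrane-bound hydrolase of dinucleotides, rose by 1.73 ± 0.31, 2.63 ± 0.35 and 2.08 ± 0.35 at 4, 10 and 18 h, and was 1 of 11 other nucleotide hydrolases measured, of which 1 rose and 1 fell at 4 h, 3 rose and 2 fell at 10 h, and 2 rose and 1 fell at 18 h. Bst1, an ectoenzyme that cleaves NAD, was the only 1 of the 3 NAD ectoenzymes measured. It rose by 1.04 ± 0.32 at 10 h and 1.62 ± 0.32 at 18 h, and its 4 h change (0.38 ± 0.29) was not called. Gja1, which forms hemichannels that can pass ATP, was dim in controls, with geometric means of 108.7 at 4 h and 89.49 at 10 h. With NCFM it rose to 250.7 at 4 h (1.20 ± 0.24) and 188 at 10 h (1.07 ± 0.27). At 18 h Gja1 was not called (0.15 ± 0.27). Lrrc8a, a subunit of volume-regulated anion channels, fell at 4 h (-0.84 ± 0.13) and 10 h (-0.52 ± 0.15) and was not called at 18 h (0.09 ± 0.15). Of 5 nucleotide release genes 1 rose and 1 fell at 4 and at 10 h, and 1 rose and 0 fell at 18 h. The rise at 18 h was that of Panx1 (0.56 ± 0.14), a channel for ATP release, named after its values were seen.

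Genes of cAMP signalling, which lies behind the adenosine receptors, numbered 14. At 4 h 0 rose and 3 fell, at 10 h 1 rose and 2 fell, and at 18 h 2 rose and 3 fell. Adcy7, an adenylate cyclase of blood cells, fell at all 3 times (-1.37 ± 0.19, -1.47 ± 0.22 and -1.49 ± 0.22). Prkar2b, a regulatory subunit of protein kinase A, was lower at 4 h (-0.57 ± 0.13) and higher at 18 h (0.92 ± 0.14), both called; it was singled out after its values were seen.

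The dendritic cell label was checked against 7 markers (Itgax, Flt3, Zbtb46, H2-Ab1, Cd74, Ciita and Clec10a), and all lay above the array median on all 16 arrays. At 4 h their sum overlapped between NCFM (42134 to 45949) and control (43269 to 44991). It was lower with NCFM at 10 h (36550 to 38684 against 41231 to 41983) and 18 h (34263 to 37116 against 42710 to 45924). Most of that sum came from Cd74 (19181 to 24211) and H2-Ab1 (11292 to 15511), while Flt3 read 307 to 427 and Zbtb46 306 to 955. The sum therefore says little of the dimmer markers. Macrophage markers were above the array median for 6 of 7 genes, all but Mrc1, and neutrophil markers for 4 of 5. The neutrophil sum was 4303 to 28100 on NCFM arrays and 16429 to 37261 on control arrays, and at 10 and 18 h it was lower on every NCFM array than on any same-time control array. Of endothelial markers 1 of 3 lay above the median (Kdr), with a sum of 911 to 2463 on NCFM arrays and 529 to 595 on control arrays. Kdr alone spanned 269 to 2152, while Cdh5 stayed within 100 to 129 and Pecam1 within 131 to 195. T cell markers summed to 964 to 1145, with 3 of 5 above the median, B cell markers had 1 of 3 and NK, mast, stromal and erythroid markers had 0. No marker was at an intensity of 0, and the part of other cell types in the member values was not tested beyond the sums given.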

How the data were processed

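The 16 arrays, of 1 channel each, fall into 6 groups. The deposited table gives 1 linear intensity per probe set and array, with near-equal array medians; how the authors summarized and normalized it is not stated in the sources used here. The table holds 45101 probe sets, and the platform's annotation ties 34945 of them to exactly 1 gene. Intensities were taken to log2, and a gene with several probe sets was represented by the brightest on average. Group means over all arrays were fitted in limma 3.58.1 (R 4.3.3; 10 residual degrees of freedom, no covariates), with two-sided p-values adjusted by Benjamini-Hochberg over 18193 genes. The fit was tested on simulated data. Named pathway genes were those called with every NCFM array beyond every control array, at most the 6 largest at a time. Outside this rule the other nucleotide receptors, Adora3, Panx1 and Prkar2b were named too. The members and lists were chosen with earlier results of these data known.

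Array numbers were checked as pairs: deviations from the group means correlated in all 36 same-number pairs of arrays (0.19 to 0.75), against -0.75 to 0.73 in 70 others. Deviations within a group cancel out, so positive values in same-number pairs bring negative values in the others. The contrast between the kinds of pair is thus partly fixed by the calculation. Alternatives were quantile normalization, spike-in centring, other probe set rules, filters, variance models, the block and leaving out arrays. No 2 arrays shared over 50% of their values. Promoter sequences and gene positions are RefSeq's (GRCm38.p6); the deposited table names no genome build. Figures were drawn with matplotlib 3.10.9.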

Additional observations from a re-analysis of the deposited data

Results flagged for a closer look

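The effect of NCFM on P2ry13 differed between times in the fit itself. It was -1.41 ± 0.21 log2 units lower at 18 h than at 4 h (limma, adjusted p = 0.0053 over all genes), with all 3 NCFM arrays above the controls at 4 h and all 3 below them at 18 h. In 21 alternatives the difference ranged from -1.58 to -1.25 and its adjusted p from 0.00013 to 0.039. P2ry13 was chosen with the NCFM results known, so this difference is a description. In the fit as reported, no such difference was called for the other 7 measured genes. Under alternatives it was called for P2ry12 at 18 h minus 4 h (spike-in centring, and the array number as a block), for P2ry14 at 18 h minus 4 h (-0.60 with only arrays 2 and 3) and for P2ry6 at both times (1.81 and 1.45 with only arrays 2 and 3).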

How the results depend on the processing

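No member value past the threshold changed sign under an alternative. Of 1007 single values, 956 stayed on the same side of the threshold, 44 passed it only under the alternative and 7 lost it. All 7 were for P2ry13 at 18 h, whose adjusted p in limma was 0.00043 with the block and 0.19 under quantile normalization. Values that were not called could change sign. The P2rx7 change at 10 h ranged from -1.27 to 0.22 and that of P2rx4 at 10 h from -0.21 to 0.51. Called members at 4 h numbered 3 in the fit as reported and 5 with the array number as a block. At 10 h the count of 1 became 2 under quantile normalization, with dim genes left out, with an intensity trend and robust variance, with the block and with only the groups compared, and 3 with the mean of probe sets and with only arrays 2 and 3. At 18 h the count of 2 became 1 under quantile normalization, 5 with spike-in centring, 5 with the block and 4 with only arrays 2 and 3. For 10 h minus 4 h the count of 0 became 1 with the block and 1 with only arrays 2 and 3, and for 18 h minus 4 h the count of 1 became 2 with spike-in centring, 2 with the block and 3 with only arrays 2 and 3. The cause was not tested. Leaving out 1 array gave 3 to 3, 1 to 2 and 1 to 4 called members at 4, 10 and 18 h, 0 to 0 and 1 to 1 for the differences, and 0 to 0 for controls. Where this left a control group with 1 array, that array was assumed to vary like the other groups. Spike-in centring moved the median of all genes by -0.18 log2 units at 18 h. Spike-in centring was restricted to bacterial control probe sets, and the fit of arrays 2 and 3 added, after the data were seen. Low signal limits what can be said of P2ry12 and of the dimmer probe sets of Entpd1 and Nt5e, which lie near the array median. The same limit holds for Gja1 and Gpr17, whose control means lay below it.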
